A study of Mus musculus with 3 samples.

Results

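The 10 genes described here are Hoxa4, Hoxa5, Hoxa7, Hoxb2, Hoxb3, Hoxb4, Hoxb5, Hoxb7, Hoxc4 and Hoxc6, read on immortalized brown adipocytes (iBATs) at 0, 1 and 2 h of isoproterenol (ISO). All probe sets of the array whose annotation is exactly one of these symbols were taken, which gave 16 of 45101 probe sets and 10 of 18194 genes. The genes were chosen on these same signals, for the rise of Hoxa5 and the fall of Hoxb2, so the values of the 10 genes are a description and support no test. Another probe set that is annotated to a member together with another HOX gene was left out.

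HOX genes encode homeodomain transcription factors that set the position of cells along the body axis. They lie in 4 clusters, HoxA to HoxD, and within a cluster the order of the genes follows the order of the body regions they pattern, from anterior (paralog group 1) to posterior (paralog group 13). HOX proteins bind DNA together with TALE homeodomain partners of the PBX and MEIS families, and Polycomb and MLL complexes hold the clusters silent or active. Fat cells keep a HOX profile that reflects the depot they came from.

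The study hybridized 1 Affymetrix array per time point with RNA from day 8 iBATs, which had by then differentiated. The cells are a single line, made from stromal vascular cells of interscapular brown fat of newborn C57BL/6 mice with SV40 large T antigen and differentiated with insulin and indomethacin. ISO, an agonist of all β-adrenergic receptors (1 μM), was added for 1 or 2 h, and the 0 h cells were at the same day of differentiation without it. Because each time point had 1 array, nothing here carries a replicate error or a p-value.

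Each value is a MAS5 signal, that is, a linear intensity of a probe set, scaled to a mean of 100 on each array once the outer 2% at each end is left out, and the array medians lay between 12.7 and 13.6. All 7 measured adipocyte markers reached a signal of 100 on at least 1 array. Fabp4, the fatty acid carrier of fat cells, was at 7490.0, 7871.8 and 7095.6 at 0, 1 and 2 h on its brightest probe set. Ucp1, the uncoupling protein, was at 1485.7, 3673.2 and 4166.1. Prdm16 reached 100 at 0 h alone, with 107.5, 77.5 and 69.3 on its brightest probe set. None of the 6 endothelial, 6 leukocyte and 6 muscle markers reached a signal of 100, with highest signals of 9.3, 93.2 and 77.9. Of 9 preadipocyte and fibroblast markers measured, 7 reached 100 and none differed from 0 h by a log2 ratio of 0.8. Of all 6896 genes that reached 100, only 1.8% did so at 1 h and 3.54% at 2 h, so nothing is read from this. The summed signal of that list was 13978.3, 13916.0 and 12885.7 at 0, 1 and 2 h. The brightest of them, the collagen gene Col1a2, had 4132.8, 4557.0 and 3934.4. Another collagen gene, Col3a1, had 4038.3, 3981.2 and 3657.1 on its brightest probe set. The sum is thus weighted to collagen and does not count undifferentiated cells. The markers of this list that did not reach 100 were Thy1 and Cd34. Thy1 had 2.1, 9.9 and 9.5 at 0, 1 and 2 h, and Cd34 had 11.1, 19.4 and 10.2. The part of undifferentiated cells in the HOX signals was not tested. In such bulk RNA, fewer cells of a type and less RNA per cell cannot be told apart.

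The methods set a minimum signal of 100, and on at least 1 of the 3 arrays it was reached by 5 of the 16 HOX probe sets, against 29.7% of all 34958 probe sets with 1 gene symbol. By gene it was reached by 5 of the 10, against 37.9% of all 18194 genes with such a probe set. These 5 were Hoxa5, Hoxb2, Hoxb3, Hoxb4 and Hoxb5. Only Hoxb4 and Hoxb5 were at 100 or more on all 3 arrays. Hoxb2 and Hoxb3 were above it at 0 and 1 h and below it at 2 h, and Hoxa5 was above it at 1 h alone. Just inside the limit lay Hoxb3 and Hoxb5, whose highest signals were 108.5 and 112.9, and just outside it lay Hoxc4 and the other probe set of Hoxa5, at 94.3 and 93.1.

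By cluster, 4 of the 5 HoxB genes among the 10 reached the limit, as did 1 of the 3 HoxA genes and none of the 2 HoxC genes. The other measured HoxB genes, Hoxb1, Hoxb6, Hoxb9 and Hoxb13, stayed below it, with highest signals of 2.4, 64.0, 40.9 and 3.7. The 10 genes were chosen on these signals, and 37.9% of all genes reached the limit, so nothing is read from these counts. The HoxB genes that reached it belong to the neighbouring paralog groups 2, 3, 4 and 5 on chromosome 11. Hoxb7 of the same cluster had signals of 4.1, 0.8 and 1.9 at 0, 1 and 2 h. Over all 39 HOX genes of the mouse, 33 had a probe set of 1 symbol and 6 of these reached 100, where 37.9% of all genes did. The sixth was Hoxd8, with signals of 264.2, 225.9 and 194.5 on one probe set and 114.3, 147.4 and 161.0 on another, so that its probe sets moved in opposite directions. None of the 14 measured genes of paralog groups 9 to 13 reached the limit, and Hoxa9 came nearest at 89.8. Of the 19 measured genes of paralog groups 1 to 8, 6 reached it, against the 37.9% of all genes. Hoxc8 and Hoxc9, posterior to the genes described here and known to be higher in white than in brown fat, had highest signals of 61.6 and 83.2. Levels of different probe sets depend on the probes, so no order of abundance is read from them.

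**Figure D1:**
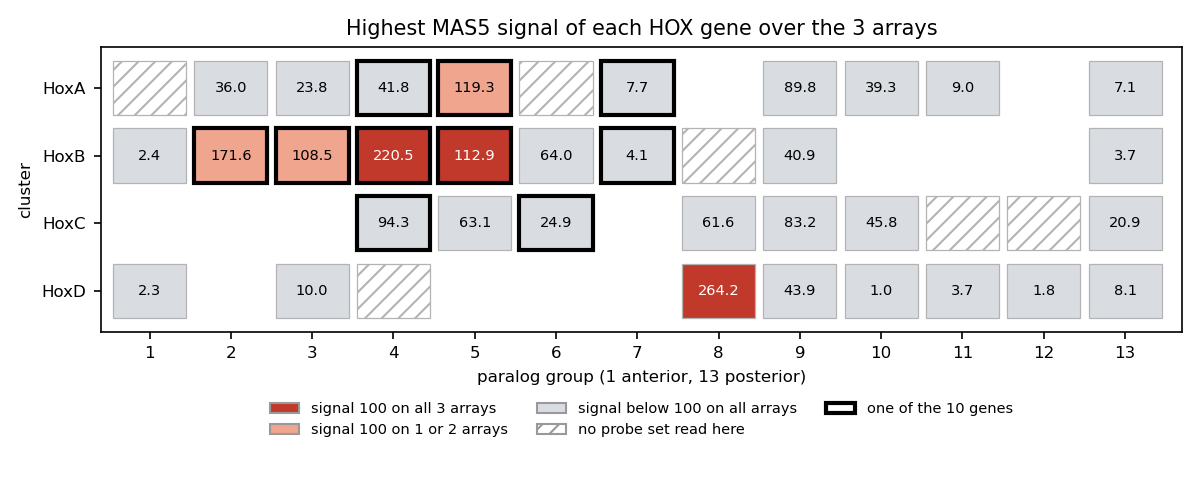
Map of the 4 HOX clusters (rows) by paralog group (columns, 1 to 13), 1 tile per gene, coloured by whether a probe set reached a MAS5 signal of 100 on all 3 arrays, on 1 or 2, or on none; the number is the highest signal of the gene and heavy borders mark the 10 genes. The HoxB tiles of groups 2 to 5, Hoxa5 and Hoxd8 reached 100, which is 6 of 19 measured genes of groups 1 to 8. No tile of groups 9 to 13 did, with 14 measured.

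Hoxa5, which patterns the cervical and upper thoracic axis and is needed for lung development, was higher after ISO. The signals of the probe set that reached 100 were 53.7, 119.3 and 96.6 at 0, 1 and 2 h. Both ISO arrays were above the 0 h array, the 1 h array most. Relative to 0 h the log2 ratio was 1.15 (2.22-fold) at 1 h and 0.85 (1.80-fold) at 2 h, and relative to 1 h it was -0.30 at 2 h. A second probe set of Hoxa5, of a design that can share sequence with other transcripts, stayed below 100, with signals of 62.4, 92.5 and 93.1 at 0, 1 and 2 h. Relative to 0 h it ran in the same direction by less, with log2 ratios of 0.57 and 0.58 at 1 and 2 h. Its 1 and 2 h arrays were level, with a log2 ratio of 0.01, so it did not share the peak at 1 h. The Hoxa5 probe set entered the comparison only through the 1 h array, so it could not enter without being higher there than at 0 h. Of 513 probe sets that were below 100 at 0 h and reached it later, 447 exceeded their 0 h signal on the 1 h array. The median over the 513 at 1 h was 0.26 on the log2 scale. Only 311 of them reached 100 on the 1 h array as Hoxa5 did, and the others did so at 2 h alone. The 513 are therefore not a matched set for Hoxa5. With every signal below 100 set to 100, the Hoxa5 ratio is 0.25 at 1 h and the call ends, and with 32 added to every signal it is 0.59 at 2 h, where the call also ends.

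Hoxb2, a regulator of hindbrain segment identity, was lower at 2 h. It has 1 probe set, whose signals were 171.6, 153.9 and 80.9 at 0, 1 and 2 h. The 2 h array stood below the other 2, and these differed little. Against 0 h the log2 ratio was -0.16 at 1 h and -1.08 (0.471-fold) at 2 h, and the 2 h array lay -0.93 from the 1 h array. With signals below 100 set to 100 it is -0.78 at 2 h, just short of the call.

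Hoxb4, known for expanding blood stem cells when overexpressed, followed the same order of arrays on both of its probe sets. The probe set that reached 100 had signals of 220.5, 188.2 and 132.4 at 0, 1 and 2 h, and its log2 ratio at 2 h was -0.74, short of 0.8. The other, with 89.5, 80.3 and 42.5, had a log2 ratio of -1.07 at 2 h but stayed below 100 and was not counted. Both probe sets were annotated to the same transcript accession, so they are not independent measures of the gene.

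The 2 other HoxB genes that reached 100 stayed within a log2 ratio of 0.8. Hoxb3, which acts in the hindbrain and pharyngeal arches, had signals of 107.6, 108.5 and 86.2 at 0, 1 and 2 h on its brighter probe set, and its log2 ratio at 2 h was -0.32. Its other probe set was at 15.8, 20.4 and 18.1. Hoxb5, which acts in the enteric nervous system and the shoulder girdle, had signals of 104.8, 112.9 and 101.4, with log2 ratios of 0.11 at 1 h and -0.05 at 2 h. The 3 arrays were nearly level for Hoxb5. In the RefSeq annotation the span of Hoxb3 overlaps that of Hoxb4 and of the microRNA gene Mir10a, and 7 of the 10 genes overlap another annotated gene. The assignment of signal to one gene of such a pair rests on the position of the probes, which was not examined.

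**Figure D2:**
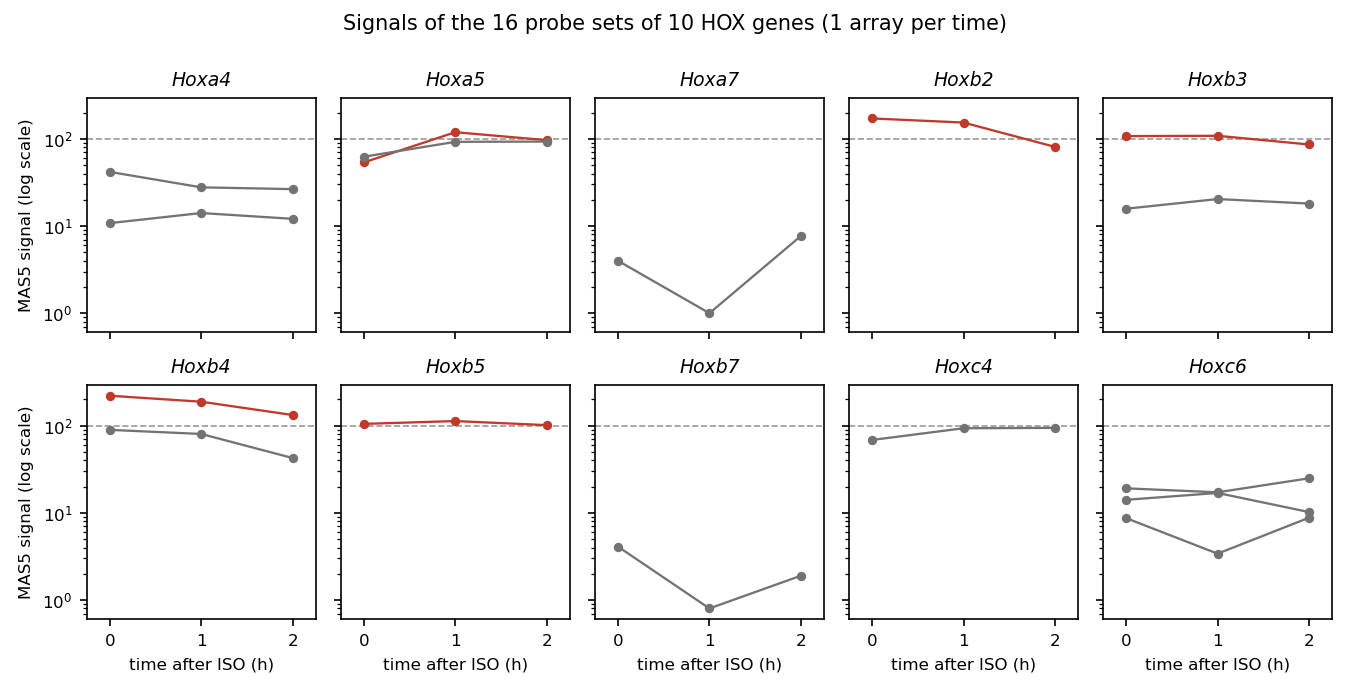
Signals of the 16 HOX probe sets by MAS5 on a log vertical axis, with hours of ISO on the horizontal axis, 1 panel per gene, 1 array per time and no error bars. Red lines reached 100 (dashed) on at least 1 array and grey lines did not; the brighter Hoxa5 probe set peaked at 119.3 at 1 h, and Hoxb2 was at its own lowest, 80.9, at 2 h.

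Cyclic AMP, the messenger raised by ISO, acts on genes through the factor CREB, which binds the palindrome TGACGTCA and its half-site TGACG. Promoter sequences of 300 bases, from 250 before to 50 after the start of the gene, were found in RefSeq (GRCm38.p6) for 4 of the 10 genes, of which Hoxa5 and Hoxb4 had reached a signal of 100. They are shown as an example of a gene that was higher and one that was not, with any half-site in capitals. Hoxa5 is at chr6:52204538-52204837 on the minus strand and Hoxb4 at chr11:96318017-96318316 on the plus strand.
Hoxa5: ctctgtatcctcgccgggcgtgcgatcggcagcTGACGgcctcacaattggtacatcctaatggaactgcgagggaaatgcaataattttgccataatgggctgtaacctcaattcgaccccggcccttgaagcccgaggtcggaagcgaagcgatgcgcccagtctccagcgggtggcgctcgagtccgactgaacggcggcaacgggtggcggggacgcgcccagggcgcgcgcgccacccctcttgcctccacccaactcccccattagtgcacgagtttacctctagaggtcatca
Hoxb4: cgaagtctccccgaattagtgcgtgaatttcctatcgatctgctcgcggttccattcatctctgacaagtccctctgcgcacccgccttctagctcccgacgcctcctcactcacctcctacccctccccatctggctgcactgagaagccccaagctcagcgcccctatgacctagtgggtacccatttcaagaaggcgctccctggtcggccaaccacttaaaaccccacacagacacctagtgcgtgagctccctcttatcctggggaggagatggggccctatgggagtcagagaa
The palindrome was in neither, as in the promoters of Hoxa7 and Hoxc4. The half-site occurred once in Hoxa5, with its first base at position -217 from the start, and on neither strand in the other 3. Of 32851 promoters of this length in RefSeq, 20.8% held the half-site on either strand and 1.79% the palindrome. A match is a run of letters and no binding was measured.

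The remaining 5 genes stayed below 100 on all arrays. Hoxc4, of the cervical and thoracic axis, had signals of 68.5, 93.4 and 94.3 at 0, 1 and 2 h, or 0.45 and 0.46 above 0 h on the log2 scale. Hoxa4, its paralog in the HoxA cluster, had 41.8, 27.8 and 26.5 on one probe set and 10.8, 14.1 and 12.1 on the other. The dimmer one is of the design that can share sequence with other transcripts, and no direction is read from its signals. Hoxc6, a thoracic gene, was between 3.4 and 24.9 on its 3 probe sets, which did not run in parallel. Its brightest is of that design too. Hoxa7 and Hoxb7 were between 0.8 and 7.7. Ratios at such signals are large and carry no direction: Hoxa7 had signals of 4.0, 1.0 and 7.7, which is a log2 ratio of 2.94 between its 2 h and 1 h arrays.

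Among the 5 probe sets that reached 100, a log2 ratio of at least 0.8 in either direction (1.74-fold, the size the study used at 1 h) was called. At 1 h over 0 h, 1 was higher (Hoxa5) and none lower, where 1.54% of all 10397 probe sets that reached 100 were higher and 0.308% lower. At 2 h over 0 h, 1 was higher (Hoxa5) and 1 lower (Hoxb2), against 2.88% and 0.894% of all. At 2 h over 1 h, none was higher and 1 was lower (Hoxb2), against 0.894% and 0.317%. Both genes were chosen for these very changes, so the counts are printed beside the shares and nothing is read from them. The comparisons share arrays, the 0 h array in the first pair and the 2 h array in the last, so they are not independent.

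The median log2 ratio of the 5 was 0.01 at 1 h and -0.32 at 2 h, and that of all 10397 was -0.02 and -0.05. For 2 h over 1 h it was -0.33 over the 5 and -0.04 over all. All 5 were below their 1 h signal at 2 h, as were 57.5% of all. Hoxa5, Hoxb2 and Hoxb3 passed the minimum signal on the 1 h array and not on the 2 h array, which leaves them no other direction. Hoxb2 was also chosen for its fall. Of the 10397, 9118 passed on every array, so they are not a matched set for the 5. Nothing is read from this count or from the medians. Over the 16 probe sets, 8 were above and 8 below 0 h at either time, and for 2 h over 1 h 6 were above and 10 below.

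**Figure D3:**
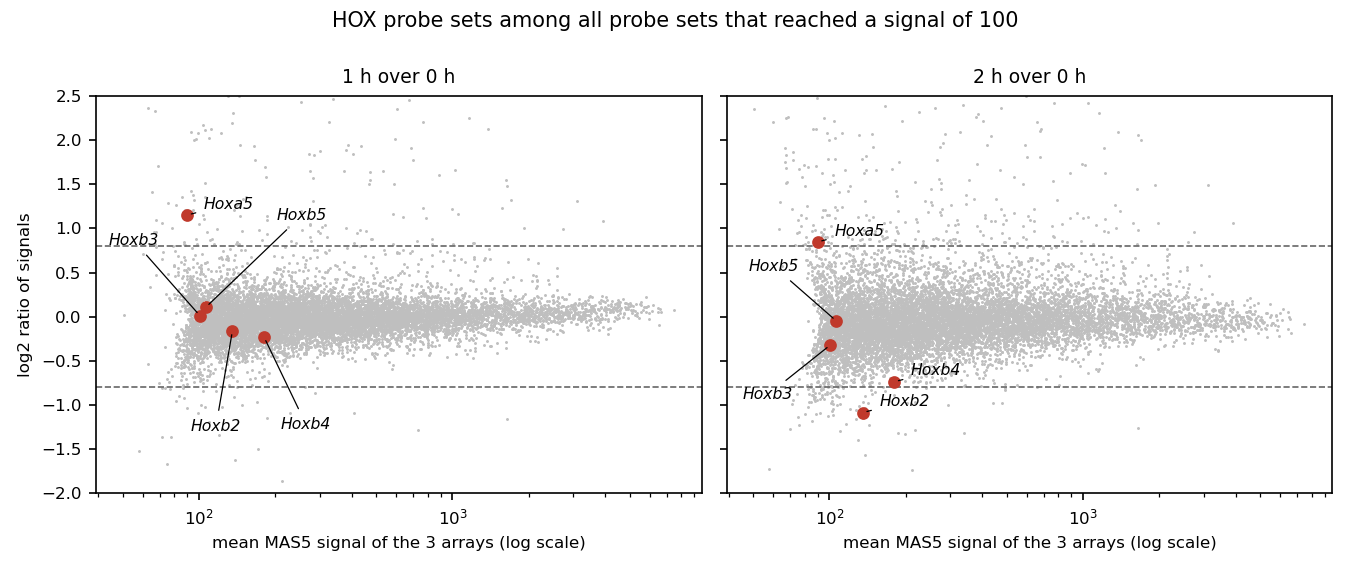
Log2 ratio of MAS5 signals to 0 h (vertical axis) against the mean signal of the 3 arrays (horizontal axis, log scale) for all 10397 probe sets of 1 symbol that reached 100 (grey) and the 5 HOX probe sets among them (red), at 1 h (left) and 2 h (right). Dashed lines mark 0.8 in either direction, and 19 and 27 probe sets lie outside the vertical axis; Hoxa5 lies above the upper line in both panels and Hoxb2 below the lower one at 2 h.

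The spread of the ratios differed with the signal. It is given here as a scaled median absolute deviation, which holds change as well as noise. It was taken over probe sets that reached 100 and had a mean signal within 1.5-fold of the HOX probe set. A probe set with a mean below 100 reached 100 only if its arrays differed, which can widen the spread at low signal. For 2166 probe sets around Hoxa5 it was 0.25 at 1 h and 0.35 at 2 h. For 3891 around Hoxb2 it was 0.21 at 1 h and 0.29 at 2 h. Hoxa5 and Hoxb2 were chosen for the size of their ratios, so their distance from these spreads is a description and supports nothing. At 2 h the spread was 0.26 around Hoxb4, 0.34 around Hoxb3 and 0.33 around Hoxb5.

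**Figure D4:**
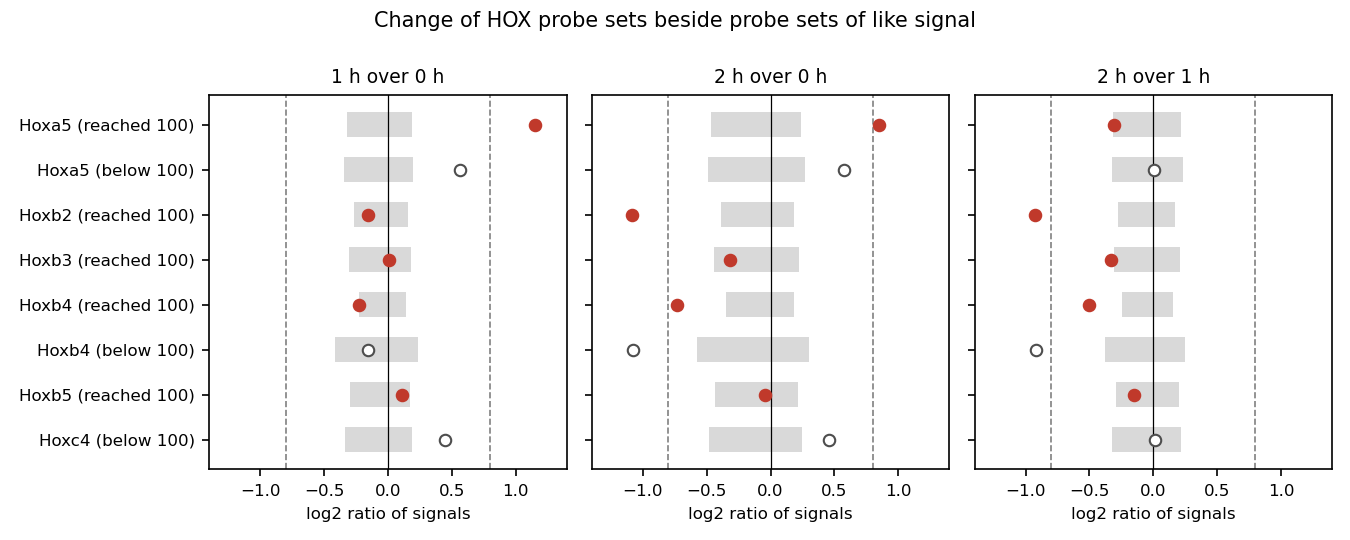
Log2 ratio (horizontal axis) of the HOX probe sets with a mean signal of at least 50 (1 row each) for 1 h over 0 h, 2 h over 0 h and 2 h over 1 h. Filled points reached 100 and open ones did not, grey bars give the median and spread of probe sets of like signal that reached 100, and dashed lines mark 0.8; at 2 h Hoxa5 lies at 0.85, Hoxb2 at -1.08 and Hoxb4 at -0.74 and -1.07.

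The patterns of 2 genes were set beside those of all genes with a mean signal within 2-fold, by the distance between the pairs of log2 ratios at 1 and 2 h, over 3 arrays. Nearest to Hoxa5 among 2101 genes were Angptl8, an insulin-responsive secreted protein of fat and liver (distance 0.17, with log2 ratios of 1.14 and 0.68), Grasp (0.28) and Rrp1b (0.32). Nearest to Hoxb2 among 3374 genes were Klhl42 (distance 0.03, with ratios of -0.15 and -1.12), Khnyn (0.13) and Sesn2, a stress-induced regulator of mTOR signalling (0.19). With 3 arrays such distances describe these values and nothing more.

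The partners and regulators of HOX proteins are given beside the share of all 6896 genes that were called, in either direction on the brightest probe set, which was 1.8% at 1 h over 0 h, 3.54% at 2 h over 0 h and 0.986% at 2 h over 1 h. With such shares, a count of 0 in lists of 2 to 10 genes is near that of any genes and nothing is read from it. Of 8 measured TALE partners 3 reached 100, and none was called on its brightest probe set at any time (medians of -0.07 at 1 h and 0.06 at 2 h). Pbx3 had signals of 356.7, 339.1 and 373.1 at 0, 1 and 2 h. The probe sets of Pbx2 differed: the brightest was at 207.3, 198.0 and 195.6, whereas another had 121.6, 78.1 and 62.6, which was called lower at 2 h with a log2 ratio of -0.96. Of 15 measured Polycomb subunits 10 reached 100, and none of their 17 probe sets was called. Among all probe sets that reached 100, 2.88% were higher and 0.894% lower at 2 h over 0 h, so nothing is read from this either. The median log2 ratio over the Polycomb genes was 0.04 at 1 h and -0.02 at 2 h. Suz12, a core subunit, had 924.0, 964.7 and 961.8. Jarid2, which recruits the complex, had log2 ratios between 0.46 and 0.53 at 2 h on its 3 probe sets.

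All 10 members of the list of MLL complex subunits and H3K27 demethylases reached 100 and none was called, with medians of -0.12 and -0.16 at 1 and 2 h. Dpy30, a subunit of MLL complexes, had signals of 1121.7, 1056.4 and 946.2 at 0, 1 and 2 h. Kdm6b, the H3K27 demethylase that removes the Polycomb mark, had 385.3, 632.6 and 613.6, which lay 0.72 and 0.67 above 0 h on the log2 scale, short of 0.8. The 9 retinoic acid receptors, retinoid X receptors and caudal factors act upstream of HOX genes in the embryo. Of these, the retinoid X receptors Rxra and Rxrb reached 100 and neither was called. The retinoic acid receptors Rara, Rarb and Rarg stayed below it, with highest signals of 8.7, 17.9 and 33.8. Rxrb had signals of 230.3, 143.7 and 157.1.

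Genes outside the clusters also mark the position of a fat depot. Of 13 measured, 6 reached 100, with medians of 0.07 at 1 h and at 2 h. Zic1, a marker of classical brown fat, was the 1 gene called, at 2 h, against 3.54% of all 6896 genes. It had signals of 173.2, 276.3 and 318.8 at 0, 1 and 2 h and a log2 ratio of 0.88. Its other probe set, below 100, had 48.9, 70.6 and 91.8. Nothing is read from a count of 1 gene. Lhx8 and Epsti1 of the same list stayed below 100, with highest signals of 80.5 and 8.8. Prrx1, a mesenchymal homeobox gene, had 869.0, 973.5 and 995.7 on its brightest probe set. Tbx15 and Shox2 differed from 0 h at 2 h by log2 ratios of -0.06 and -0.20. Of 16 noncoding RNAs of the HOX clusters 3 were measured, and only Hoxb5os, which overlaps Hoxb5, reached 100. It had signals of 462.0, 481.0 and 458.1, and like Hoxb5 it was nearly level over the 3 arrays.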

How the data were processed

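RNA of iBATs at 0, 1 and 2 h of ISO was hybridized by the authors to Affymetrix mouse arrays, and the deposited table holds their MAS5 output (named by the submitters' processing notes), 1 linear intensity for each probe set. The methods' exclusion of absent and low transcripts had not been made in that table. All columns of values were used. Gene symbols came from the platform annotation: of 45101, 34958 carried 1 symbol, 932 several and 9211 none, and only the first were used. Ratios were taken on the log2 scale from the deposited signals without further scaling, using numpy 2.4.6 and pandas 2.3.3 under Python 3.11.15. A signal of 0 was given 0.1. Compared were probe sets that reached 100 on any of the 3 arrays, and a log2 ratio of 0.8 or more was called. With 1 array per time point the number of arrays limits the precision, and a call is a size and not a test. The calculation was tested on simulated data.

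The 10 genes and the 12 gene lists were chosen with earlier results of these data known. Named are all 10 genes, the members of each list that reached 100 and were past a log2 ratio of 0.8 or brightest, and the 3 nearest patterns of Hoxa5 and Hoxb2. Further genes were picked after their values were seen (Hoxd8, Hoxa9, Hoxc8, Hoxc9, Jarid2, Kdm6b, Rxra, Tbx15, Shox2, Prdm16). The same holds for Hoxb1, Hoxb6, Hoxb9, Hoxb13, Lhx8, Epsti1, Thy1, Cd34, Col3a1, Rara, Rarb and Rarg. The half-site search was also added after the data were seen. There were 11 alternatives for the ratios and 4 for the count at 100, with cyclic loess from limma 3.58.1 in R 4.3.3. Figures were drawn with matplotlib 3.10.9.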

Additional observations from a re-analysis of the deposited data

How the results depend on the processing

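The calls rest on signals near 100. Under no setting did a called ratio change sign. The 5 genes and 5 probe sets that reached 100 are 2 and 2 if all 3 arrays must, 1 and 1 at a minimum of 200, and at a minimum of 50 there are 8 probe sets. When every array must reach 100, when 1 must reach 200, or when low signals are set to 100, 0 HOX probe sets are called in any comparison. With 32 added to every signal, Hoxa5 at 1 h (0.82) and Hoxb2 at 2 h over 0 h are still called, and 0 are higher at 2 h over 0 h or lower at 2 h over 1 h. The same holds at 2-fold. With no filter the counts at 1 h over 0 h, 2 h over 0 h and 2 h over 1 h are 1, 2 and 3 higher and 3, 3 and 2 lower, with Hoxa7, Hoxb7 and Hoxc6 called from signals of 0.8 to 8.8 and the dimmer Hoxb4 probe set from 89.5, 80.3 and 42.5, where 11.9% to 13.9% of all probe sets are called in each direction. The same median, quantile normalization, cyclic loess, omission of probe sets with suffixes for shared sequence, and 1 probe set per gene left the called genes as they were.

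Over all probe sets that reached 100, 299 were higher and 93 lower at 2 h over 0 h, and 364 and 50 after cyclic loess. For 2 h over 1 h, 93 were higher and 33 lower, and 72 and 42 with the same median. The 93 lower at 2 h over 0 h become 33 when low signals are set to 100, and 19 when every array must reach 100. No paired analysis was possible because there was 1 array per time point, and leaving out an array leaves no comparison. MAS5 detection calls were not used here, so which signals below 100 stand above background is unknown.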
